A study of Mus musculus with 12 samples.

Results

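The comparison described here is that of mice given busulfan and then the gut microbiota of control mice (Busulfan+Con-FMT) with mice given busulfan alone (Busulfan). It takes in 6 of the 12 mice of the series, 3 in each group, and 12379 of the 18221 genes listed, namely those with an RPKM (reads mapped to a gene, scaled by transcript length and by the mapped total of the mouse) of at least 1 in at least 3 of these 6 mice. All mice were males of ICR, an outbred stock, 3 weeks old at the start and 8 weeks old when the spleen was taken. Both groups had a single injection of busulfan, an alkylating drug that crosslinks DNA and depletes blood-forming cells, at 40 mg/kg. The Con-FMT mice (FMT, fecal microbiota transplantation) then received by mouth, each day for 2 weeks, luminal content of the small intestine pooled from control donors, and the Busulfan mice received saline. The mice were then kept for 3 more weeks. The remaining groups, also of 3 mice each, were Blank (saline, no busulfan) and Busulfan+A10-FMT (busulfan, then content from donors dosed with alginate oligosaccharides), and they enter below only where a level needs a reference. The donor content was pooled, so the donors are not replicates, and the libraries were made from whole spleen.

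The spleen filters blood and houses lymphocytes. Its red pulp holds macrophages that recycle iron from old red cells and, in mice, red cell precursors, while the white pulp holds T and B cells drawn in by chemokines such as CCL21 and CXCL13. Gut microbes reach the immune system through microbial molecules and metabolites in the blood, which is why a transfer of luminal content can be examined in the spleen. The heat shock proteins, on which most of the results below turn, are chaperones that fold other proteins. Their genes share a switch, heat shock factor 1 (HSF1), which binds heat shock elements made of repeated GAA units in alternating orientation when unfolded protein builds up in the cytosol. The endoplasmic reticulum has a separate set of chaperones under other factors.

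The spacing of the lowest values gave an estimated depth of 14600000 to 15400000 reads per mouse. The tissue label fitted its defining markers in all 6 mice, since Tlx1 and Nkx2-5, which mark spleen stroma, were read at 12.6 to 13.6 and 3.21 to 3.44 RPKM in the Busulfan mice and at 14.4 to 14.6 and 3.62 to 4.74 RPKM in the Con-FMT mice. Cd79a of B cells was at 529.5 to 630.1 RPKM in the former and 593 to 639.6 RPKM in the latter. Genes of other tissues were also present and differed between the groups. The summed RPKM of 30 pancreatic acinar genes was 653 to 4693 in the Busulfan mice and 11402 to 18345 in the Con-FMT mice, against 1805 to 9723 in Blank and 630 to 13512 in Busulfan+A10-FMT, and all 28 acinar genes tested were higher in each Con-FMT mouse (10.5% of all genes). None of the 28 was called, and 26 had an unadjusted p under 0.05, as did 18.5% of all genes. The summed RPKM of 15 adipocyte genes went the other way, with 355 to 666 in the Busulfan mice and 184 to 325 in the Con-FMT mice. The sum of 15 kidney genes was 75.1 to 102 in the Busulfan mice, 102 to 162 in the Con-FMT mice and 171 to 248 in Blank, and Kap, a kidney gene, was at 7.23, 11.6 and 14.4 RPKM and 23.3, 16.8 and 59.98 RPKM in the first 2 groups. Of 12 mesothelial genes tested 9 had a fold change below 0 (median -0.32), with overlapping sums of 424 to 543 and 454 to 525, none called with all mice and 6 called lower without Busulfan replicate 1, where 1.87% of all genes were. The adult β-globin genes differed by mouse: Hbb-bs and Hbb-bt, the genes of one mouse haplotype, made up 0.022% to 0.0497% of the RPKM of the 4 adult β-globin genes in the 3 Busulfan mice, and 0.0619%, 27.2% and 6.09% in the Con-FMT mice. The mice thus did not share 1 β-globin haplotype, and in an outbred stock inherited differences between 3 and 3 mice cannot be told apart from the treatment.

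**Figure D1:**
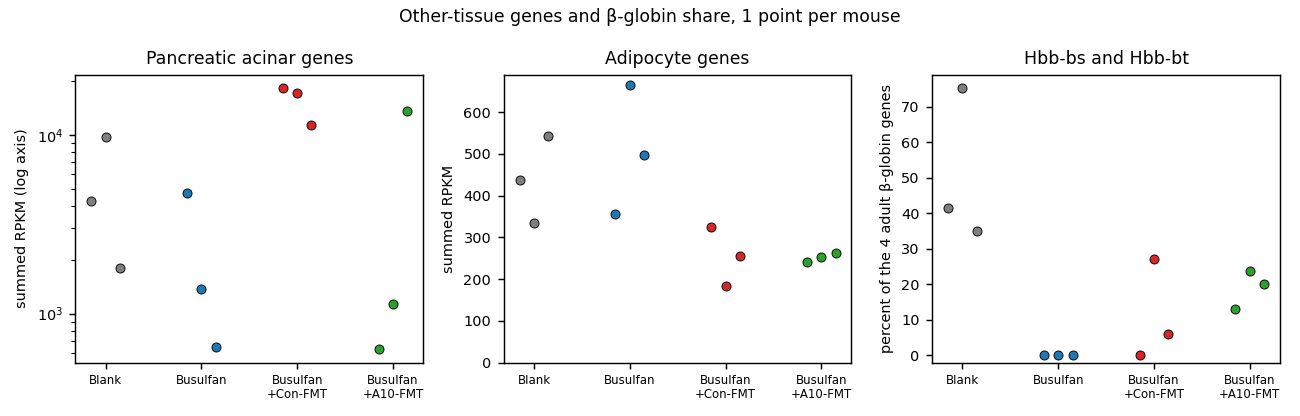
Summed RPKM of the pancreatic acinar list (log axis) and of the adipocyte list, and the percent of adult β-globin RPKM from Hbb-bs and Hbb-bt, with 1 point per mouse in the 4 groups. The 3 Con-FMT mice lie above the 3 Busulfan mice in the acinar panel and below them in the adipocyte panel, and all 3 Busulfan mice lie near 0 in the β-globin panel.

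The question put to these data is what the transfer of control microbiota adds to busulfan in the spleen. Each gene was tested on log2(RPKM + 1) with limma, in 1 fit of all 12 mice. Genes with an adjusted p under 0.05 are referred to as called. Fold changes are on this scale throughout, which understates the change of genes of low RPKM. In the Con-FMT mice 86 genes rose (0.695% of the genes tested) and 29 fell (0.234%), 115 in all (0.929%). All 115 had no overlap between the 3 and the 3 mice, which held for 19.6% of all genes tested, and an exact permutation test of 3 against 3 mice cannot give a p below 0.1. The sizes were small. The median of the absolute log2 fold changes of the called genes was 0.45, and 8 genes, all higher, exceeded 1. At the cutoffs of an adjusted p of at most 0.001 and an absolute log2 fold change of at least 1, 1 gene remained, Fggy. The median over all genes tested was -0.0036. The count depended on single mice, with 486 genes (3.93%) called without Busulfan replicate 1 and 20 without Busulfan replicate 2. With the acinar sum as a covariate 37 were called, and with the adipocyte sum 7. The balance of directions depended on the scaling, since 69 genes rose and 117 fell when the libraries were set to equal totals outside the globin genes. The fitted direction of all 115 genes was the same in each of 17 other settings that tested them. Since the groups did not overlap in these genes, leaving out 1 mouse or changing the pseudocount could not turn a direction. This agreement is therefore no separate support. Fewer cells of a type and less RNA per cell cannot be told apart in such bulk samples.

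**Figure D2:**
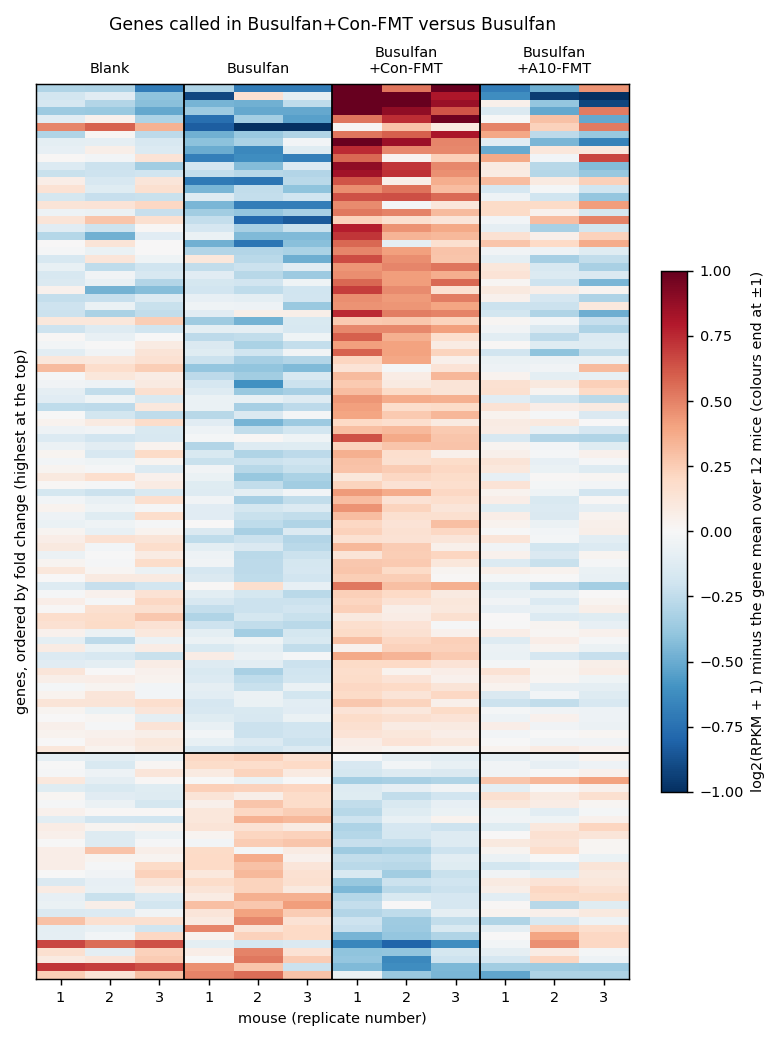
The 115 genes called in Busulfan+Con-FMT versus Busulfan (rows, highest fold change at the top), as log2(RPKM + 1) minus the mean of the gene over the 12 mice, with the mice in columns by group. The horizontal line parts the 86 higher from the 29 lower genes, and the Blank and Busulfan+A10-FMT mice are shown for reference.

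The heat shock and chaperone genes were the list with the most called members. Of 30 genes listed and tested, 16 rose in the Con-FMT mice, where 0.695% of all genes did, and none fell. The median log2 fold change of the 30 was 0.42. The lists and their members were chosen with earlier results of these data known. Their counts beside the share of all genes are thus a description only. The count of the list was 5, 6 and 7 without Busulfan replicate 2, Con-FMT replicate 1 and Con-FMT replicate 2, in fits where 0.153%, 0.194% and 0.25% of all genes were called higher. It was 8 in a fit of the 6 mice alone (0.234% of all genes), 12 without Busulfan replicate 3 (0.323%), and 16 without Busulfan replicate 1 (2.06%) and without Con-FMT replicate 3 (0.654%). When the list was parted by the place where each protein works, a step made after the values were seen, the 16 genes were all among the 21 of the cytosol, nucleus and mitochondria (median 0.57), and none of the 9 of the endoplasmic reticulum was called (median 0.035, range -0.13 to 0.15). The summed RPKM of the 21 genes was 2929 to 3040 in the Busulfan mice and 4354 to 4744 in the Con-FMT mice, and in 19 of the 21 each Con-FMT mouse lay above each Busulfan mouse (10.5% of all genes).

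The promoters of these genes were searched for the letters of a heat shock element, the sequence that HSF1 binds. The motif was TTC, GAA and TTC in this order with any 2 bases between neighboring units, or its reverse complement GAA, TTC and GAA with the same spacing. It was sought on both strands from 250 bases before to 50 bases after each start in the RefSeq promoters (GRCm38.p6). Both spellings can overlap in a long run of units. Of the 12379 genes, 9891 had a promoter entry and 53 (0.536%) held a match. Of the 16 heat shock genes that rose, 12 had an entry and 4 held a match: Hsph1, Chordc1, Hspd1 and Hspe1. Of the 70 other genes that rose, 49 had an entry and none held a match. None of the 11 uncalled heat shock genes with an entry held one, the 7 endoplasmic reticulum chaperones among them. At a share of 0.536% over all genes, a count of 0 in sets of this size says little. The matches are printed 5′ to 3′ on the strand of the gene, with the matched units in capitals.
Hspe1: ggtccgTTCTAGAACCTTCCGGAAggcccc
Hspd1: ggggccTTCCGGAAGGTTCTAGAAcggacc
Chordc1: GAACGTTCGGGAAAATTCCTGAA
Hsph1: TTCTGGAAAGTTC
The first pair is 1 site, chr1:55088053-55088082, read from both strands, since Hspe1 lies on the plus strand and Hspd1 on the minus strand. Its match began 89 bases before the start of Hspe1. It began 144 bases before the inner of the starts listed for Hspd1 (position 55087932) and lay inside the gene as counted from the outer start (position 55088243). The run in Chordc1 (chr9:18292263-18292285, plus strand) spanned the start, beginning 4 bases before it, and that in Hsph1 (chr5:149636288-149636300, minus strand) began at base 37 after one of its starts. A match of letters is a description of the promoter and not a measured binding site.

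Among the HSP70 chaperones and their partners, Hsph1 changed most by fold apart from Hspa1b. Hsph1 (chr5:149616843-149636498 in GRCm38.p6) encodes HSP110, which exchanges nucleotide on HSP70 and holds unfolded proteins, and it was read at 34, 33.7 and 39.5 RPKM in the Busulfan mice and 114, 113 and 86.8 RPKM in the Con-FMT mice. Each Con-FMT mouse was above 80 RPKM and each Busulfan mouse below 40 RPKM (log2 fold change 1.51, SE 0.21, adjusted p = 0.0155). Hspa1b (chr17:34956429-34959238), the stress-inducible HSP70, stood at 1.77, 4.8 and 3.87 RPKM in the Busulfan mice and 13.1, 19.7 and 8.13 RPKM in the Con-FMT mice, with 1 Con-FMT mouse nearer to the Busulfan mice than the others (log2 fold change 1.7, SE 0.32, adjusted p = 0.0495). Hspa1a, a near-identical copy whose reads can be assigned to Hspa1b and the reverse, was at 0.51, 1.9 and 1.6 RPKM in the Busulfan mice and 4.79, 7.06 and 2.62 RPKM in the Con-FMT mice and was not called (log2 fold change 1.3, adjusted p = 0.0701). The constitutive HSP70, Hspa8 (chr9:40801276-40805202), was far more abundant at 983, 972 and 1078 RPKM in the Busulfan mice and 1649.5, 1482 and 1655 RPKM in the Con-FMT mice, so that its rise by 1.58-fold was the largest of the list on the RPKM scale (log2 fold change 0.66, SE 0.10, adjusted p = 0.0127).

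The J-domain protein Dnaja1 (chr4:40722468-40734965), which hands clients to HSP70, was at 59.3, 63.2 and 77.6 RPKM in the Busulfan mice and 157, 144 and 111 RPKM in the Con-FMT mice (log2 fold change 1.03, SE 0.16, adjusted p = 0.0156), with no overlap. Dnajb1, another J-domain partner of HSP70, was at 29.1, 40.5 and 42.2 RPKM in the Busulfan mice and 53.2, 52.5 and 43.8 RPKM in the Con-FMT mice and missed the threshold (log2 fold change 0.42, adjusted p = 0.111), although its groups did not overlap. Hspa4l, an HSP110 relative, rose less (log2 fold change 0.48, SE 0.083, adjusted p = 0.0194), whereas its paralog Hspa4 differed little, with 55.1, 49 and 50.3 RPKM in the Busulfan mice and 51.9, 56.3 and 52.3 RPKM in the Con-FMT mice and overlapping groups (log2 fold change 0.056, adjusted p = 0.655). The HSP70 co-chaperone Bag3, which links clients to autophagy, was at 9.04, 9.23 and 9.78 RPKM in the Busulfan mice and 13.7, 13.2 and 11.7 RPKM in the Con-FMT mice (log2 fold change 0.42, SE 0.074, adjusted p = 0.0201).

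Both cytosolic HSP90 genes rose. Hsp90aa1 (chr12:110691036-110696395), the inducible form, was at 359, 405 and 405 RPKM in the Busulfan mice and 652, 553 and 547 RPKM in the Con-FMT mice (log2 fold change 0.58, SE 0.085, adjusted p = 0.00829). Hsp90ab1 (chr17:45567778-45573261), the constitutive form, was at 668, 668 and 640.1 RPKM in the Busulfan mice and 955, 906 and 896 RPKM in the Con-FMT mice (log2 fold change 0.48, SE 0.051, adjusted p = 0.00113). In both genes the mice of a group lay close together and the groups were well apart.

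Several genes of HSP90 partners were among those called. Stip1 (chr19:7020696-7040026), also called HOP, which bridges HSP70 and HSP90, had the lowest adjusted p of the list at 89.2, 82.8 and 85.1 RPKM in the Busulfan mice and 152, 153 and 145 RPKM in the Con-FMT mice (log2 fold change 0.80, SE 0.071, adjusted p = 0.000275). Chordc1 (chr9:18292267-18314000), a co-chaperone of HSP90, was at 41.5, 34.7 and 42.8 RPKM in the Busulfan mice and 88.3, 78 and 66.2 RPKM in the Con-FMT mice (log2 fold change 0.95, SE 0.14, adjusted p = 0.012). The ATPase activator Ahsa1 was at 86.7, 87 and 83 RPKM in the Busulfan mice and 129, 129.8 and 123 RPKM in the Con-FMT mice (log2 fold change 0.57, SE 0.063, adjusted p = 0.00113). None of these values overlapped between the groups. The related Ahsa2 (chr11:23487882-23498045), which the list did not hold, was at 17.2, 16.7 and 16.5 RPKM in the Busulfan mice and 37.3, 34.5 and 28.4 RPKM in the Con-FMT mice (log2 fold change 0.94, SE 0.11, adjusted p = 0.00194). Fkbp4, an HSP90-bound prolyl isomerase of steroid receptors, was at 62.2, 61.6 and 57.8 RPKM in the Busulfan mice and 91.2, 89.2 and 94.2 RPKM in the Con-FMT mice (log2 fold change 0.59, SE 0.074, adjusted p = 0.00269). Cacybp rose as well (log2 fold change 0.45, adjusted p = 0.0166), as did St13, the HSP70-interacting protein HIP, which was also outside the list (log2 fold change 0.45, adjusted p = 0.0101).

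The mitochondrial chaperonin, built from Hspd1 (HSP60) and Hspe1 (HSP10), whose promoter windows share the site printed above, rose by the smallest amounts among the called members. Hspd1 (chr1:55077833-55088243) was at 144, 131 and 135 RPKM in the Busulfan mice and 178, 173 and 164 RPKM in the Con-FMT mice (log2 fold change 0.33, SE 0.057, adjusted p = 0.0194). Hspe1 (chr1:55088148-55091317) was at 186, 206 and 173 RPKM in the Busulfan mice and 265, 226 and 236 RPKM in the Con-FMT mice (log2 fold change 0.36, SE 0.078, adjusted p = 0.0495). The groups of both genes were apart, narrowly so for Hspe1. Hsf1 (chr15:76477362-76501155), the transcription factor of these genes, was at 23.1, 21.2 and 19.7 RPKM in the Busulfan mice and 29.8, 28.2 and 28.6 RPKM in the Con-FMT mice (log2 fold change 0.42, SE 0.065, adjusted p = 0.0119). Of the small heat shock proteins, Hspb1 was at 10.8, 12.5 and 9.45 RPKM in the Busulfan mice and 14.2, 17.1 and 20.01 RPKM in the Con-FMT mice, without overlap but not called (log2 fold change 0.60, adjusted p = 0.138), and Cryab, whose protein is a small chaperone of muscle and lens, was near 8.42 to 10.1 RPKM in the Busulfan mice and 8.87 to 9.99 RPKM in the Con-FMT mice (log2 fold change 0.0062, adjusted p = 0.978).

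The chaperones of the endoplasmic reticulum gave overlapping values. Hspa5 (BiP), the HSP70 of that compartment, was at 284, 231 and 262 RPKM in the Busulfan mice and 265, 271 and 285 RPKM in the Con-FMT mice (log2 fold change 0.083, adjusted p = 0.721). Hsp90b1 (GRP94), its HSP90, was at 400.1, 291 and 381 RPKM in the Busulfan mice and 306, 325 and 339 RPKM in the Con-FMT mice (log2 fold change -0.13, adjusted p = 0.64). The lowest adjusted p among the 9 was 0.479, and 0 had an unadjusted p under 0.05. The 95% intervals of the 9 fold changes all held 0.

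**Figure D3:**
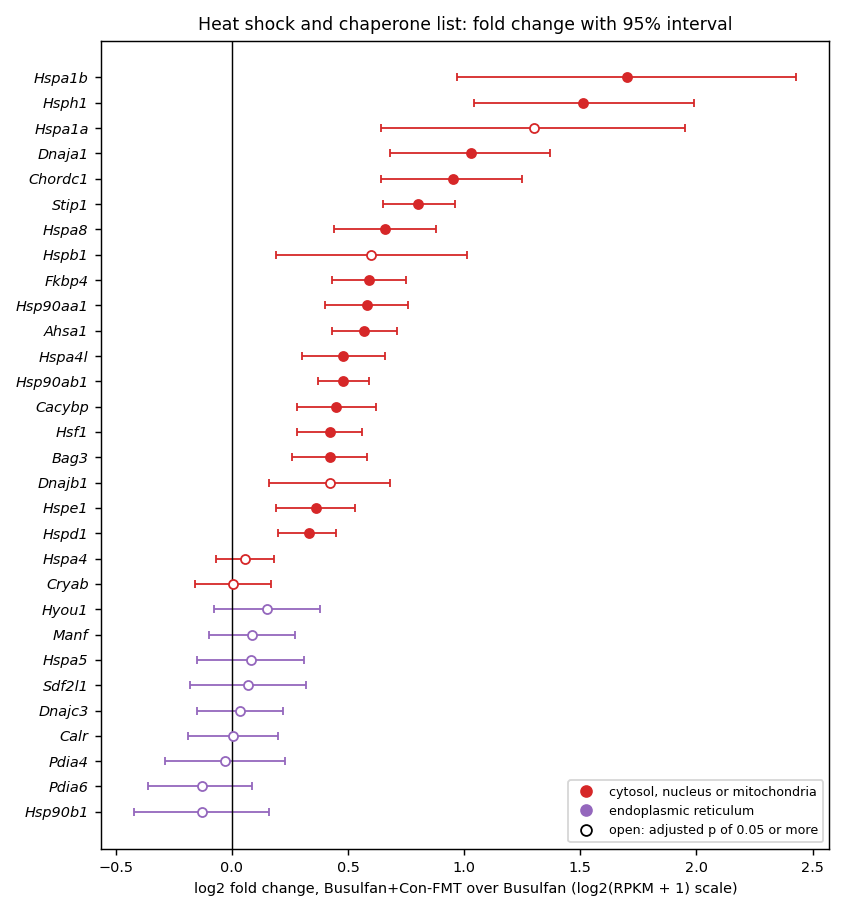
Log2 fold change of Busulfan+Con-FMT over Busulfan for the 30 heat shock and chaperone genes, with 95% intervals from the fit. Filled points passed the test: 16 of the 21 genes of the cytosol, nucleus and mitochondria (red) and none of the 9 of the endoplasmic reticulum (purple).

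The level of the 21 genes in the Con-FMT mice stood apart from the other groups too. Their summed RPKM was 2733 to 2918 in Blank and 2432 to 3059 in Busulfan+A10-FMT, both below the lowest Con-FMT value. The comparisons share mice, so their values are given side by side only. Between Busulfan and Blank 1 of the 21 was called, Hsf1, which was lower in Busulfan (log2 fold change -0.27, adjusted p = 0.0198). Of all genes 9.79% were called lower and 4.84% higher in Busulfan than in Blank. Between Con-FMT and Blank 16 were called higher (2.36% of all genes were), and between A10-FMT and Con-FMT 18 were called lower in A10-FMT (2.89% of all genes were). Hsph1, for example, was at 42, 38.4 and 35.2 RPKM in Blank and 49, 35.9 and 24.5 RPKM in A10-FMT, all below the Con-FMT mice. Of the 9 endoplasmic reticulum genes, 1 was called higher in Con-FMT than in Blank, and 1 lower in A10-FMT than in Con-FMT. The acinar sum was also higher in the Con-FMT mice. With the acinar sum of each mouse as a covariate, 10 of the 21 were called (0.218% of all genes were called higher) and their median was 0.65. With the adipocyte sum as a covariate, 1 was called (0.0404% of all genes) and the median was 0.60. The median of the 9 endoplasmic reticulum genes, none of which was called in either fit, was 0.038 with the acinar covariate and turned to -0.22 with the adipocyte one. The part of other tissues in the heat shock values was not otherwise tested.

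**Figure D4:**
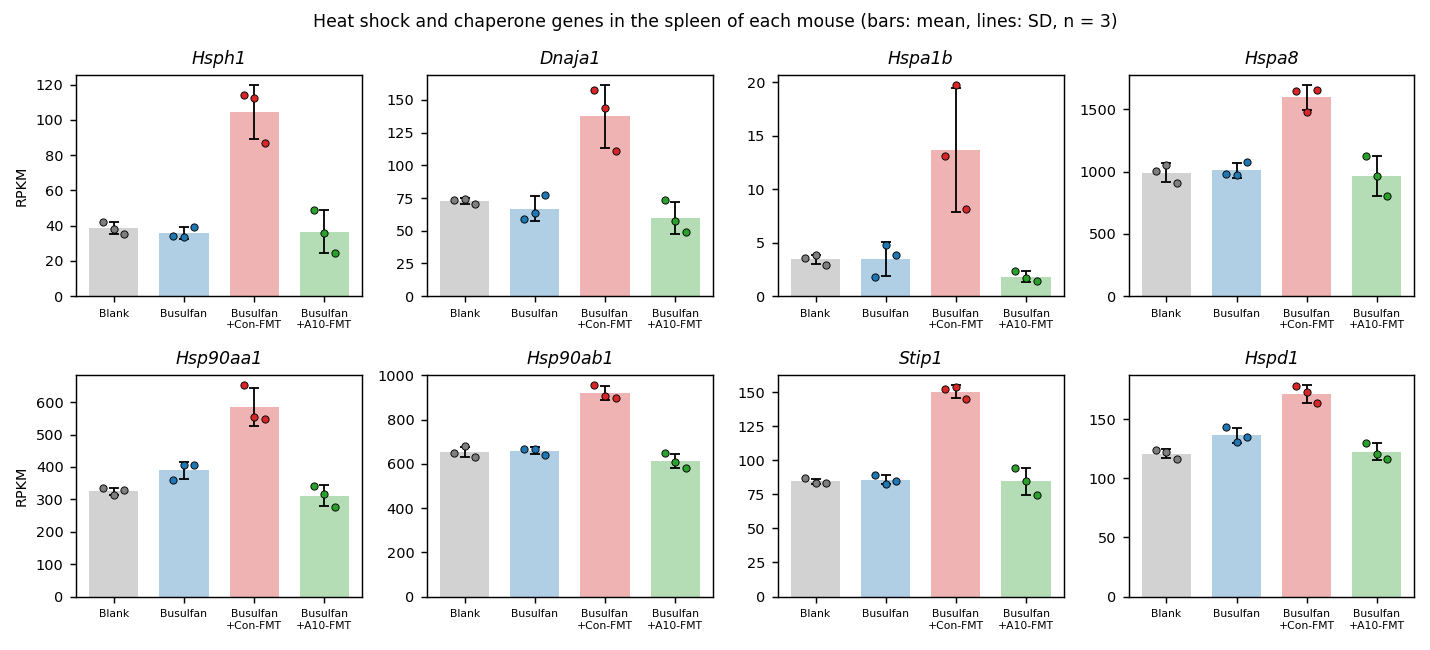
RPKM of 8 heat shock and chaperone genes in each mouse of the 4 groups (points), with the mean (bars, from 0) and SD (lines), n = 3 mice. The 3 Con-FMT mice lie above all other mice in each of the 8 panels.

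Outside the chaperones, the genes that rose most were of low RPKM and of mixed function. Fggy (chr4:95557480-95926939), a carbohydrate kinase gene, was at 1.02, 0.71 and 0.58 RPKM in the Busulfan mice and 2.63, 3.36 and 2.81 RPKM in the Con-FMT mice (log2 fold change 1.16, SE 0.12, adjusted p = 0.000893). In Blank it stood at 4.03, 4.39 and 3.56 RPKM, above every Con-FMT mouse. Cnga1 (chr5:72603696-72642752), a subunit of a cyclic nucleotide-gated channel known from photoreceptors, was at 1.35, 1.12 and 2.04 RPKM in the Busulfan mice and 4.56, 3.61 and 3.62 RPKM in the Con-FMT mice (log2 fold change 0.99, SE 0.17, adjusted p = 0.0179). The replication-dependent histone gene H4c14 (chr3:96262934-96263317) was at 0.6, 1.13 and 0.85 RPKM in the Busulfan mice and 2.92, 3.5 and 4.31 RPKM in the Con-FMT mice (log2 fold change 1.3, SE 0.19, adjusted p = 0.00829). In each of these 3 genes the groups were apart.

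Lman2l (chr1:36418900-36445271), a cargo lectin of the early secretory path, was at 6.51, 7.71 and 6.8 RPKM in the Busulfan mice and 13.2, 14 and 11.8 RPKM in the Con-FMT mice (log2 fold change 0.81, SE 0.093, adjusted p = 0.00162). P4ha1, the catalytic subunit of collagen prolyl 4-hydroxylase, rose to 23.3, 22.8 and 20.04 RPKM from 12.3, 11.9 and 12.4 RPKM (log2 fold change 0.80, adjusted p = 0.00113), and Chst10, a sulfotransferase of the HNK-1 glycan, to 14.3, 13.5 and 12.3 RPKM from 7.88, 7.9 and 7.73 RPKM (log2 fold change 0.70, adjusted p = 0.000275). A group of near-identical copies rose together. Csprs, a component of the Sp100-rs repeat, was at 7.06, 5.87 and 5.88 RPKM in the Busulfan mice and 14.4, 9.91 and 11 RPKM in the Con-FMT mice (log2 fold change 0.80, SE 0.11, adjusted p = 0.00691), LOC100041903 and LOC546061 had log2 fold changes of 0.95 and 0.92, and Gm7592 one of 0.76. In Blank Csprs stood at 11.1, 11.2 and 11.8 RPKM, and in A10-FMT at 11.7, 11.6 and 13.8 RPKM. Each of these copies was called lower in Busulfan than in Blank (9.79% of all genes were). None was called between Con-FMT and Blank. Reads can be split among such copies, so their values are uncertain.

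Further called genes, chosen after their values were seen, rose by less. Akna, a centrosomal and DNA-binding protein of lymphocytes, was at 38.7, 35.4 and 36.4 RPKM in the Busulfan mice and 52.3, 59.1 and 46.5 RPKM in the Con-FMT mice (log2 fold change 0.50, adjusted p = 0.00691). Runx3, a factor of cytotoxic T cells, was at 19.4, 18.8 and 18.5 RPKM in the Busulfan mice and 25.4, 24.9 and 22.4 RPKM in the Con-FMT mice (log2 fold change 0.34, adjusted p = 0.0155). Stat6, which carries the interleukin-4 signal, was at 46.1, 42.4 and 44.5 RPKM in the Busulfan mice and 57.9, 55.9 and 52.2 RPKM in the Con-FMT mice (log2 fold change 0.31, adjusted p = 0.0173). The groups did not overlap in these 3 genes. Mavs, the mitochondrial adaptor of RNA sensing, was at 20.4, 23.1 and 23.3 RPKM in the Busulfan mice and 29.9, 30.8 and 31.1 RPKM in the Con-FMT mice (log2 fold change 0.44, adjusted p = 0.00691). Banp, a nuclear protein that binds unmethylated promoters, was at 12.4, 12.7 and 13.7 RPKM in the Busulfan mice and 20.6, 21.4 and 22 RPKM in the Con-FMT mice (log2 fold change 0.68, adjusted p = 0.0054). Mrps6 of the mitochondrial ribosome was at 18.9, 16.8 and 15.7 RPKM in the Busulfan mice and 28.7, 27.8 and 26.7 RPKM in the Con-FMT mice (log2 fold change 0.67, adjusted p = 0.00269). Nor did the groups overlap in Mavs, Banp and Mrps6. Slc5a3, whose position on chr16 overlaps that of Mrps6, was also called higher (log2 fold change 0.56, adjusted p = 0.0385). Reads can be shared between both genes.

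Ins1 (chr19:52264297-52265015), the insulin gene of the pancreatic islet, had the largest fold change of the called genes at 0.3, 0 and 0 RPKM in the Busulfan mice and 3.57, 1.34 and 4.12 RPKM in the Con-FMT mice (log2 fold change 1.8, SE 0.33, adjusted p = 0.0362), and the trypsinogen-like Gm10334 was called beside it (log2 fold change 1.38, adjusted p = 0.0126). Both belong with the acinar genes described above as genes of the pancreas, not of the spleen. Ins2 gave 0.43, 0.6 and 0 RPKM in the Busulfan mice and 11.4, 2.1 and 12.5 RPKM in the Con-FMT mice. Their part in the other results was not tested beyond the covariate fits above.

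The T cell genes were the second list with several called members. Of 31 tested, 4 rose (0.695% of all genes did), none fell, and 28 had a fold change above 0. The median was 0.33 against -0.0036 over all genes. The members of this list too were chosen with earlier results known. Thy1 (chr9:44043384-44048579), a surface glycoprotein of mouse T cells, was at 52.2, 40.1 and 40.05 RPKM in the Busulfan mice and 90.5, 69.5 and 68.5 RPKM in the Con-FMT mice (log2 fold change 0.77, SE 0.13, adjusted p = 0.0218). Cd3e (chr9:44998735-45009663), a chain of the T cell receptor complex, was at 38.6, 32 and 33.5 RPKM in the Busulfan mice and 54.1, 45.8 and 46.3 RPKM in the Con-FMT mice (log2 fold change 0.48, SE 0.10, adjusted p = 0.0458). The groups did not overlap in either gene, and Busulfan replicate 1 was the highest of its group in both. Il7r, the receptor that keeps naive T cells alive, was at 15.6, 11.3 and 15.1 RPKM in the Busulfan mice and 21.4, 18.8 and 19.4 RPKM in the Con-FMT mice (log2 fold change 0.49, adjusted p = 0.0385). Trat1, an adaptor of the receptor complex, was at 7.37, 7.01 and 7.33 RPKM in the Busulfan mice and 14.5, 12.2 and 9.65 RPKM in the Con-FMT mice (log2 fold change 0.66, adjusted p = 0.0495).

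The other T cell genes did not pass the test. The kinase Lck was at 69.3, 55.3 and 55.2 RPKM in the Busulfan mice and 90.2, 75 and 79.5 RPKM in the Con-FMT mice (log2 fold change 0.44, adjusted p = 0.0632). Cd3g, another CD3 chain, was at 90.3, 69.95 and 69.8 RPKM in the Busulfan mice and 115, 85.7 and 89.8 RPKM in the Con-FMT mice (log2 fold change 0.33, adjusted p = 0.168). Cd2 gave 95.5, 78 and 76.1 RPKM in the Busulfan mice and 83.8, 85.7 and 79.3 RPKM in the Con-FMT mice (log2 fold change 0.0023, adjusted p = 0.993). In 11 of the 31 genes each Con-FMT mouse was above each Busulfan mouse (10.5% of all genes), and in none was each below (9.06%). The regulatory T cell gene Ctla4 had the lowest fold change, -0.14. The summed RPKM of the list was 705 to 887 in the Busulfan mice and 902 to 1093 in the Con-FMT mice, against 734 to 858 in Blank and 782 to 917 in A10-FMT. Leaving out 1 mouse left 0 of the 31 called for Busulfan replicates 2 and 3 and for Con-FMT replicates 1 and 2, 2 for Con-FMT replicate 3 and 9 for Busulfan replicate 1, where 19 to 255 of all genes were called higher. None of the 31 was called in a fit of the 6 mice alone or with the acinar or adipocyte sum as a covariate, where 29, 27 and 5 of all genes were called higher, so few that a count of 0 among 31 says little. The median of the list was 0.14 with the acinar covariate and 0.33 with the adipocyte one.

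The white pulp list held 3 called genes of 27 tested, 2 higher and 1 lower (0.695% and 0.234% of all genes), and the natural killer and cytotoxic list 1 of 27, higher. Without Busulfan replicate 1 these lists had 7 and 2 genes called higher (2.06% of all genes). Ltb (chr17:35194507-35196305), the lymphotoxin chain that T and B cells use to maintain the white pulp, was at 216, 205 and 192 RPKM in the Busulfan mice and 274, 267 and 247 RPKM in the Con-FMT mice (log2 fold change 0.36, SE 0.06, adjusted p = 0.0155). Il7r rose too, and Itga4, the α4 integrin chain for VCAM-1 and MAdCAM-1, fell from 43.6, 41.7 and 43.5 RPKM to 34.2, 34.5 and 35.1 RPKM (log2 fold change -0.30, SE 0.056, adjusted p = 0.0247), while the abundant chemokine Cxcl12 was at 229.8, 235 and 222 RPKM in the Busulfan mice and 224, 241 and 286 RPKM in the Con-FMT mice (log2 fold change 0.12, adjusted p = 0.488). Prf1 (chr10:61297751-61304684), the pore-forming perforin, was at 2.76, 2.75 and 2.62 RPKM in the Busulfan mice and 4.42, 3.89 and 4.42 RPKM in the Con-FMT mice (log2 fold change 0.50, SE 0.10, adjusted p = 0.0362) and was the called gene of the natural killer and cytotoxic list, whose median was 0.0043. In Blank Prf1 stood at 5.13, 4.57 and 4.83 RPKM. Ccl5 of cytotoxic cells was close to the threshold at 105, 86.6 and 81.3 RPKM in the Busulfan mice and 141, 139.6 and 108 RPKM in the Con-FMT mice (log2 fold change 0.50, adjusted p = 0.0557). Nkg7 was at 37.6, 38.9 and 32.6 RPKM in the Busulfan mice and 35.4, 35.9 and 39.3 RPKM in the Con-FMT mice (log2 fold change 0.021, adjusted p = 0.907). Of these 27 genes 18 were called lower in Busulfan than in Blank (9.79% of all genes were) and 13 lower in Con-FMT than in Blank (6.45% of all genes were).

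The 29 genes that fell did so by a log2 of at most 0.74. Those named are given with their known roles. Me1 (chr9:86581363-86695914), malic enzyme, which makes NADPH for lipid synthesis, was at 4.73, 7.24 and 5.84 RPKM in the Busulfan mice and 3.37, 2.66 and 3.96 RPKM in the Con-FMT mice (log2 fold change -0.68, SE 0.14, adjusted p = 0.0458). Pcx (chr19:4510472-4621752), pyruvate carboxylase, was at 6.43, 8.99 and 6.83 RPKM in the Busulfan mice and 4.38, 4.39 and 5.29 RPKM in the Con-FMT mice (log2 fold change -0.56, SE 0.12, adjusted p = 0.0458). The peroxisomal fatty acid transporter Abcd2 was at 1.8, 2.22 and 2.14 RPKM in the Busulfan mice and 0.98, 1.09 and 1.22 RPKM in the Con-FMT mice (log2 fold change -0.54, adjusted p = 0.0495). Lipe, hormone-sensitive lipase, was at 9.15, 10.8 and 9.49 RPKM in the Busulfan mice and 7.49, 6.42 and 7.08 RPKM in the Con-FMT mice (log2 fold change -0.43, adjusted p = 0.0431). The acyl-CoA synthetase Acsl1 (log2 fold change -0.37, adjusted p = 0.0438) and Chpt1, which makes phosphatidylcholine (log2 fold change -0.51, adjusted p = 0.0365), fell too. Me1, Pcx, Abcd2, Lipe and Acsl1 are also genes of fat tissue. The adipocyte list had a median log2 fold change of -1.0, with Lipe as its 1 called member among 12 tested (0.234% of all genes were called lower), and with 4 called lower without Busulfan replicate 1 (1.87% of all genes). With the adipocyte sum as a covariate 2 genes in all were called lower. Adipoq, the defining adipocyte gene, was at 8.12, 21.7 and 15.4 RPKM in the Busulfan mice and 9.09, 3.05 and 4.12 RPKM in the Con-FMT mice.

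Siglech (chr7:55768154-55779448), a receptor of plasmacytoid dendritic cells, was at 9.38, 8.84 and 9.04 RPKM in the Busulfan mice and 6.08, 5.39 and 6.21 RPKM in the Con-FMT mice, both groups being narrow and apart (log2 fold change -0.55, SE 0.10, adjusted p = 0.0215). It stood at 16.7, 15.4 and 16.3 RPKM in Blank, above both groups, and was the 1 called gene of 20 dendritic cell genes tested (0.234% of all genes were called lower), whose median was -0.063 and 0.0057 without Busulfan replicate 1. Bst2, another gene of those cells that interferon also induces, was at 81.7, 67.5 and 53.9 RPKM in the Busulfan mice and 58.6, 71.6 and 64.3 RPKM in the Con-FMT mice (log2 fold change -0.045, adjusted p = 0.89), with overlapping values. Plau, urokinase, was at 5.76, 4.28 and 4.52 RPKM in the Busulfan mice and 3.11, 2.75 and 3.33 RPKM in the Con-FMT mice (log2 fold change -0.52, adjusted p = 0.0447). Melk, a mitotic kinase, was at 8.08, 7.88 and 8.83 RPKM in the Busulfan mice and 5.23, 6.37 and 5.56 RPKM in the Con-FMT mice (log2 fold change -0.47, adjusted p = 0.0385). Neil3, a DNA glycosylase of the crosslink repair that replicating cells use, was at 21.2, 25.9 and 25.8 RPKM in the Busulfan mice and 16.2, 17.9 and 17.7 RPKM in the Con-FMT mice (log2 fold change -0.46, adjusted p = 0.0362). Tacc3 of the spindle (log2 fold change -0.34, adjusted p = 0.0447), Cenpa, the centromeric histone (log2 fold change -0.27, adjusted p = 0.0385), and Tipin of the replication fork (log2 fold change -0.31, adjusted p = 0.012) fell as well.

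The remaining named genes that fell had other roles. Slc22a4, a carrier of ergothioneine, was at 11.6, 14.2 and 12.7 RPKM in the Busulfan mice and 8.39, 8.67 and 9.85 RPKM in the Con-FMT mice (log2 fold change -0.47, adjusted p = 0.0155). Cav2 of caveolae was at 5.24, 5.66 and 5.13 RPKM in the Busulfan mice and 3.2, 3.74 and 3.92 RPKM in the Con-FMT mice (log2 fold change -0.46, adjusted p = 0.0202). Def8 was at 10.9, 11.2 and 10.7 RPKM in the Busulfan mice and 7.06, 8.03 and 8.15 RPKM in the Con-FMT mice (log2 fold change -0.45, adjusted p = 0.0155). In each of these 3 the Con-FMT mice lay below all Busulfan mice. Gstz1, an enzyme of tyrosine breakdown, was at 17.2, 18.4 and 16.2 RPKM in the Busulfan mice and 12.1, 12 and 13.5 RPKM in the Con-FMT mice (log2 fold change -0.43, adjusted p = 0.0385). Uxt, a prefoldin-type protein, was at 21.1, 24 and 18.9 RPKM in the Busulfan mice and 15.3, 15.2 and 16.9 RPKM in the Con-FMT mice (log2 fold change -0.41, adjusted p = 0.0237). The zinc finger gene Gm14295, one of a family of similar genes whose reads can be shared, was at 8.92, 7.75 and 5.24 RPKM in the Busulfan mice and 4.31, 3.69 and 4.3 RPKM in the Con-FMT mice (log2 fold change -0.68, adjusted p = 0.028). The groups were apart in these 3 genes as well. Serpinb1a, a protease inhibitor of granules, was at 95.9, 83 and 89.1 RPKM in the Busulfan mice and 65.3, 67.2 and 72.8 RPKM in the Con-FMT mice (log2 fold change -0.38, adjusted p = 0.0365). Tmem45b had the largest fall, to 0.69, 0.36 and 0.28 RPKM from 1.48, 1.59 and 1.15 RPKM (log2 fold change -0.74, adjusted p = 0.0155).

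Beside Blank, the called genes were of several kinds. Of the 86 higher genes, 31 differed by the test from Blank in Busulfan and not in Con-FMT, and 39 in Con-FMT and not in Busulfan. A further 3 differed in both and 13 in neither. Fggy, Prf1 and Ltb were among the 31, and Stip1, Dnaja1, Thy1 and Cd3e among the 39. Of the 29 lower genes, 10 differed from Blank in Busulfan only, 10 in Con-FMT only, 2 in both and 7 in neither. These comparisons share mice with the one that chose the genes, so directions against Blank are partly set by the choice, and the counts are given as a description only. A call in one comparison and not in another does not show that the sizes differ.

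Apart from Thy1, which the stromal list also holds, the remaining lists of spleen genes held no called gene, and their medians lay between -0.20 and 0.10 except for neutrophil genes. Without Busulfan replicate 1, 11 of 37 erythroid and 8 of 36 cell cycle genes were called lower (1.87% of all genes), and 4 of 26 B cell and 4 of 27 immediate early genes higher (2.06%), with at most 2 in either direction in each of these other lists. The cell cycle list had all 36 tested members below 0, with a median of -0.20 and 22 at an unadjusted p under 0.05 (18.5% of all genes). Pcna of the replication clamp was at 460.4, 498 and 512 RPKM in the Busulfan mice and 431, 438 and 476 RPKM in the Con-FMT mice (log2 fold change -0.13, adjusted p = 0.254). Birc5, survivin, was at 174, 211 and 186 RPKM in the Busulfan mice and 176, 178 and 177 RPKM in the Con-FMT mice (log2 fold change -0.10, adjusted p = 0.473), with overlapping values in both. Between Busulfan and Blank, 25 of the 36 were called higher in Busulfan (4.84% of all genes were), and 3 were called higher in Con-FMT than in Blank (2.36% of all genes were). Of 37 erythroid genes 1 was above 0 (median -0.14, 13 at an unadjusted p under 0.05, against 18.5% of all genes). Car2, carbonic anhydrase, was at 1176, 1456 and 1492 RPKM in the Busulfan mice and 1271, 1215 and 1348 RPKM in the Con-FMT mice (log2 fold change -0.10, adjusted p = 0.621). Alas2 of heme synthesis was at 609, 729 and 737 RPKM in the Busulfan mice and 584, 628 and 572 RPKM in the Con-FMT mice (log2 fold change -0.21, adjusted p = 0.215). The cytosolic ribosomal protein genes lay the other way, with 38 of 40 above 0 and a median of 0.10, Rpl12 of the large subunit being at 2545, 2426 and 2279 RPKM in the Busulfan mice and 2659, 2533 and 2606 RPKM in the Con-FMT mice (log2 fold change 0.11, adjusted p = 0.254). With the acinar and adipocyte covariates the erythroid median turned to 0.03 and 0.071, and the cell cycle median was -0.12 and -0.13. The ribosomal median was still above 0, at a median of 0.044, with equal totals outside the globin genes.

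Neutrophil genes had a median of -0.51 with wide spread, and 3 of 28 had an unadjusted p under 0.05, a share below the 18.5% of all genes. The median was -0.15 with the acinar covariate and -0.54 with the adipocyte one. S100a9, an antimicrobial calcium-binding protein, was at 1294, 2085 and 1311 RPKM in the Busulfan mice and 864, 1220.02 and 1161 RPKM in the Con-FMT mice (log2 fold change -0.51, adjusted p = 0.436). S100a8, its partner, was at 1251, 1891 and 1173 RPKM in the Busulfan mice and 740.05, 1131 and 985 RPKM in the Con-FMT mice (log2 fold change -0.58, adjusted p = 0.405). The Busulfan mice were all above the Con-FMT mice in both, and Busulfan replicate 2 was the highest by far. Of 28 genes tested 12 had each Con-FMT mouse below each Busulfan mouse, where 9.06% of all genes did. The B cell list had a median of 0.041, with Cd79a at 630.1, 529.5 and 549 RPKM in the Busulfan mice and 624, 639.6 and 593 RPKM in the Con-FMT mice (log2 fold change 0.12, adjusted p = 0.338), and without Busulfan replicate 2 its median was -0.033. With the acinar and adipocyte covariates the B cell median was -0.11 and -0.081. Of 41 interferon-stimulated genes tested 30 were below 0 and 11 above, with a median of -0.067 that turned to as much as 0.075 when 1 mouse was left out (Busulfan replicate 1 or Con-FMT replicate 1). Of 36 microbe-sensing genes 21 were above 0, with a median of 0.024 that was -0.0082 without Busulfan replicate 2. At an adjusted p under 0.05 none of these was called.

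**Figure D5:**
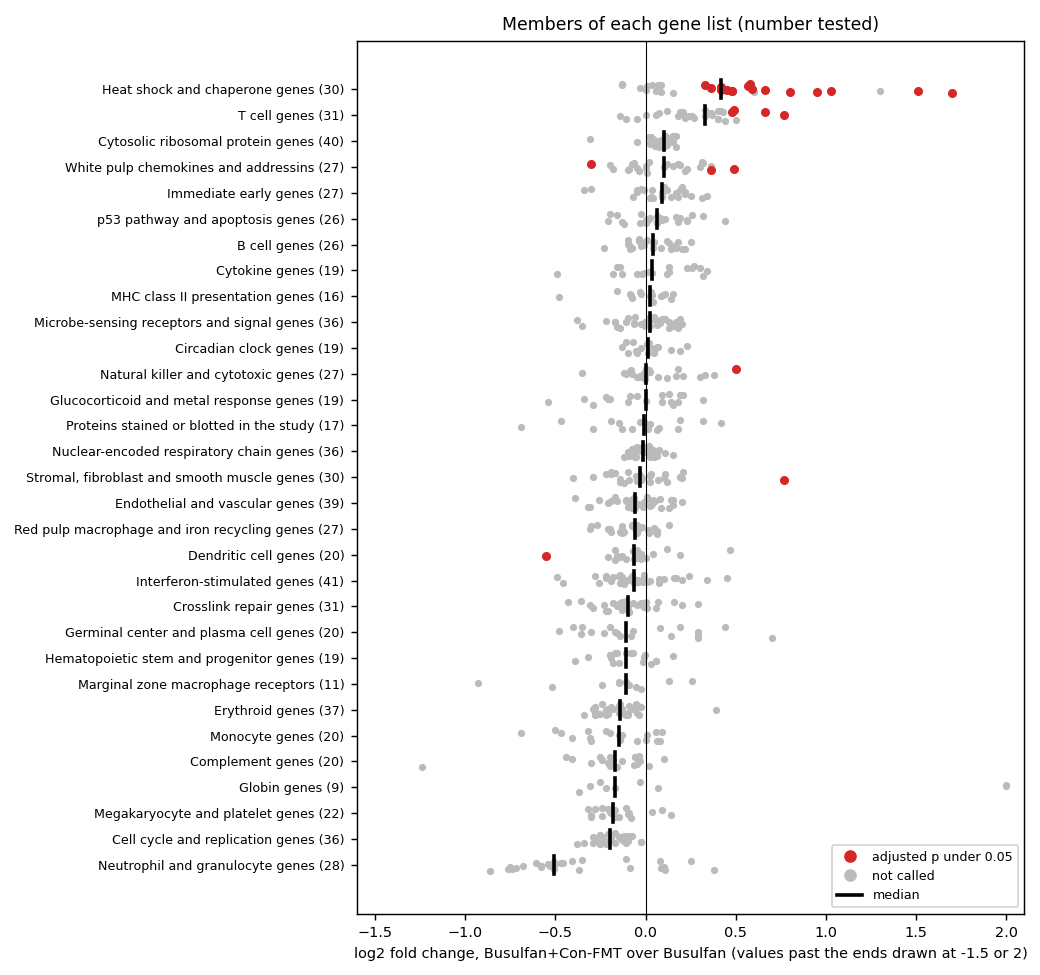
Log2 fold change of Busulfan+Con-FMT over Busulfan for the tested members of 31 gene lists (number tested in brackets), with the median of each list as a bar and called genes in red. The heat shock list and the T cell list have the highest medians, 0.42 and 0.33, and the neutrophil list has the lowest, -0.51.

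The 17 genes of proteins stained or blotted in the study, with both Ly6c1 and Ly6c2 standing for Ly6C, gave no call in this comparison, and 2 had an unadjusted p under 0.05 (18.5% of all genes). The endothelial gene Pecam1 (CD31) was at 47.4, 42.5 and 43.5 RPKM in the Busulfan mice and 43.9, 42.7 and 45.8 RPKM in the Con-FMT mice (log2 fold change -0.0093, adjusted p = 0.953). Kdr (VEGFR2) was at 7.69, 7.85 and 7.54 RPKM in the Busulfan mice and 5.46, 6.61 and 8.01 RPKM in the Con-FMT mice (log2 fold change -0.19, adjusted p = 0.308). The hemoglobin scavenger receptor gene Cd163 was at 0.83, 1.82 and 2.33 RPKM in the Busulfan mice and 1.32, 1.52 and 2.03 RPKM in the Con-FMT mice (log2 fold change 0.015, adjusted p = 0.985). In each the groups overlapped. Slc40a1, ferroportin, was at 80.6, 103 and 106 RPKM in the Busulfan mice and 79.1, 89.5 and 94.7 RPKM in the Con-FMT mice (log2 fold change -0.13, adjusted p = 0.545). Siglec1 of marginal macrophages was at 7.56, 10.2 and 8.83 RPKM in the Busulfan mice and 5.87, 7.52 and 10.8 RPKM in the Con-FMT mice (log2 fold change -0.15, adjusted p = 0.716). Vcam1 was at 102, 119 and 122 RPKM in the Busulfan mice and 94.3, 112 and 119 RPKM in the Con-FMT mice (log2 fold change -0.073, adjusted p = 0.721). The groups overlapped in these 3 as well. Of the 17 genes, 6 were called higher in A10-FMT than in Con-FMT (7.78% of all genes were), namely Pecam1, Kdr, Vcam1, Gja1, Slc40a1 and Siglec1.

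The lymphoid and survival markers of the same set were also not called. Madcam1 was at 20.7, 13.7 and 14.7 RPKM in the Busulfan mice and 21.8, 17 and 16.9 RPKM in the Con-FMT mice (log2 fold change 0.18, adjusted p = 0.567). Ccl21a was at 847, 585 and 449 RPKM in the Busulfan mice and 827, 763 and 681 RPKM in the Con-FMT mice (log2 fold change 0.32, adjusted p = 0.482). Ccr7, its receptor, was at 53, 42.6 and 41.2 RPKM in the Busulfan mice and 58.3, 49.4 and 48.1 RPKM in the Con-FMT mice (log2 fold change 0.19, adjusted p = 0.341). The groups overlapped in all 3. Cd27 had the highest fold change of the 17 at 25.1, 17.8 and 21.1 RPKM in the Busulfan mice and 35.1, 24.3 and 27.7 RPKM in the Con-FMT mice (log2 fold change 0.42, adjusted p = 0.168). Trp53 was at 90.3, 84.2 and 79.2 RPKM in the Busulfan mice and 89.1, 85.2 and 90.7 RPKM in the Con-FMT mice (log2 fold change 0.064, adjusted p = 0.599). Bcl2 was at 14.4, 13.1 and 14.6 RPKM in the Busulfan mice and 15.7, 13.7 and 11.9 RPKM in the Con-FMT mice (log2 fold change -0.033, adjusted p = 0.888). Overlap was also seen in these 3. Mki67, which encodes the Ki67 antigen, was at 153, 185 and 199 RPKM in the Busulfan mice and 135, 136 and 164 RPKM in the Con-FMT mice (log2 fold change -0.29, adjusted p = 0.162). Each Busulfan mouse was above the median Con-FMT mouse for Mki67, and the groups overlapped. Gja1, Ngfr, Ly6c1 and Ly6c2 had adjusted p between 0.346 and 0.889, and Ly6c1 was the 1 gene of the 17 without overlap, lower in each Con-FMT mouse.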

How the data were processed

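Spleen RNA of 12 mice, 3 per group, was measured by RNA-seq, with 1 file per mouse. The authors mapped reads to RefSeq transcripts and deposited RPKM values per transcript. Their Methods name SOAPaligner and a HiSeq instrument, while the submitters' processing notes name HISAT, Bowtie2 and mm10 and the protocols in the labels describe a BGISEQ instrument, so the mapper behind these values is open, and mapping choices affect near-identical copies most. RPKM was summed over the transcripts of each gene (60654 transcripts, 18221 genes, 18101 with a RefSeq name in GRCm38.p6). Genes with RPKM of at least 1 in at least 3 of the 6 mice were kept.

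Values were tested as log2(RPKM + 1) with limma 3.58.1 (R 4.3.3, trend and robust settings, two-sided) in 1 fit of the 12 mice, with Benjamini-Hochberg adjustment over the 12379 genes. RPKM values share the mapped total, so they show relative levels. On simulated data for this comparison the fit called 142 of 200 genes changed by a log2 of 0.5 (71.0%) and 196 of 200 changed by 1 (98.0%), with 3 and 4 false calls among 12179 unchanged genes. The simulated noise was independent for each gene and mouse, with no difference between mice that moves many genes together. These rates therefore need not hold for the real mice. The 35 gene lists, the members and the split of the heat shock list were chosen with earlier results of these data known. Genes named were up to 15 higher and up to 15 lower called genes of largest fold change with a mean of at least 2 RPKM in the higher group, up to 6 called members of each list by adjusted p and its 2 most abundant members, and the 17 genes of proteins stained or blotted in the study. Genes outside this rule (Cacybp, Hspd1, Hspe1, Hspa4l, Bag3, St13, Chst10, P4ha1, Gm7592, Gm10334, Akna, Runx3, Stat6, Mavs, Banp, Mrps6, Slc5a3, Acsl1, Tacc3, Cenpa, Tipin, Serpinb1a and Tmem45b among the called ones, and the further uncalled members named for contrast) were chosen after their values were seen. Not every abundant list member within the rule is named. Alternatives changed the filter, pseudocount, scaling, model, replicate block and the mice included, and covariates for acinar and adipocyte RPKM were added after seeing the data. Promoters were RefSeq sequences. Microbiota sequencing is not used here. A gene within the naming rule is not reported here.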

Additional observations from a re-analysis of the deposited data

How the results depend on the processing

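Against 115 called genes (86 higher, 29 lower), 186 were called with equal totals outside the globin genes (117 lower), 74 with no filter (14 lower), 32 in a fit of the 6 mice alone (29 higher, 3 lower), 75 without the trend and robust settings (13 lower), 8 on single transcripts (6 higher, 2 lower), 37 with the acinar covariate (27 higher, 10 lower) and 7 with the adipocyte covariate (5 higher, 2 lower). Removal of the trend along gene length gave 170 called genes, 121 higher and 49 lower. Fits that each left out 1 mouse called 20 to 486 genes (19 to 255 higher, 1 to 231 lower), with 5 to 16 of the heat shock genes. The fewest were called without Busulfan replicate 2 (20), Busulfan+Con-FMT replicate 1 (26) and replicate 2 (35), and Busulfan replicate 3 (56), the most without Busulfan replicate 1 (486). These fits hold 1 mouse fewer, and the cause of their spread was not tested.

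The replicate numbers did not pair the mice, since deviations of mice with the same number had r of -0.0798 to 0.157, and other numbers -0.361 to 0.324. With the replicate block 89 genes were called (72 higher, 17 lower), 78 of them among the 115.

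With equal totals outside the globin genes the uncalled fold changes turned for Cryab -0.042, Cd163 -0.021, Gja1 -0.026, Cd2 -0.05 and Nkg7 -0.031, and list medians moved for p53 pathway and apoptosis genes 0.011, Crosslink repair genes -0.15, Circadian clock genes -0.036 and Cytosolic ribosomal protein genes 0.044. Over the fits without 1 mouse, uncalled fold changes changed sign, with ranges of Cryab -0.063 to 0.052, Pecam1 -0.04 to 0.036, Cd163 -0.23 to 0.20, Vcam1 -0.15 to 0.023, Gja1 -0.043 to 0.075, Siglec1 -0.36 to 0.032, Ngfr -0.087 to 0.26, Bcl2 -0.12 to 0.06, Cd2 -0.058 to 0.10, Ctla4 -0.32 to 0.089, Nkg7 -0.053 to 0.069 and Bst2 -0.20 to 0.10, and list medians ranged as Endothelial and vascular genes -0.089 to 0.00053, White pulp chemokines and addressins 0.018 to 0.23, Marginal zone macrophage receptors -0.17 to 0.0065, Monocyte genes -0.24 to -0.10, Natural killer and cytotoxic genes -0.038 to 0.10, Hematopoietic stem and progenitor genes -0.17 to -0.042, Crosslink repair genes -0.12 to -0.058, Cytokine genes -0.011 to 0.16, Heat shock and chaperone genes 0.37 to 0.48, Immediate early genes 0.052 to 0.18 and Glucocorticoid and metal response genes -0.09 to 0.046. Estimated depth limits genes of low RPKM, and counting intervals cannot be given from RPKM.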
